A study of Mus musculus with 6 samples.

Results

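The 39 genes described here are the cell cycle and proliferation genes of a fixed list of symbols: 13 that serve the G1 to S transition and DNA replication (the S-phase genes) and 26 that serve G2 and mitosis (the mitotic genes). They were found by symbol in a table of 37411 gene rows, and all 39 were among the 16233 genes with enough counts to be tested. RNA came from primary hippocampal neuron cultures of P0 pups of the outbred CD-1 IGS mouse strain, at 16 days in vitro. In 3 of the libraries (1, 2 and 3) the cultures had received the solvent dimethyl sulfoxide (DMSO), and in the other 3 (4, 5 and 6) 50 µM forskolin, which activates adenylyl cyclase and raises cyclic AMP, for 30 min. No genotype, allele or other agent is given for either group. The labels do not say whether the libraries of a group came from separate cultures, litters or pools of animals, so p-values measure the spread between these libraries, which may be technical.

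A cell that divides first makes D-type and E-type cyclins, which with their kinases release E2F transcription factors from the retinoblastoma proteins. E2F targets then supply the replicative helicase (the MCM complex), the polymerase clamp Pcna and the enzymes that make deoxynucleotides. After replication, a later group of genes is transcribed, among them the B-type cyclins, Cdk1, the Aurora and Polo kinases, spindle motors and the activators of the anaphase-promoting complex, which ends mitosis by destroying the cyclins. Neurons have left the cell cycle, whereas astrocytes, oligodendrocyte precursors and microglia in such cultures can divide.

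The promoters of these genes are shown first because the S-phase and mitotic groups are known to be read through different DNA elements. Of the 39 genes, 31 had a promoter in RefSeq (build GRCm38.p6), taken from 250 bases before to 50 bases after the start site. The elements and windows were chosen after the expression values were known. The cell cycle homology region (CHR), searched as TTTGAA on both strands, was present in 16 of 21 mitotic genes (76.2%), in 1 of 10 S-phase genes (10%) and in 20.2% of the 27025 genes with a promoter of that length. The CCAAT box, searched as CCAAT on both strands, was present in 19 mitotic genes (90.5%), 7 S-phase genes (70%) and 41.1% of all genes. Both elements stood together in 16 mitotic genes (76.2%), 1 S-phase gene (10%) and 7.97% of all genes. An E2F element, searched on both strands as TTTCCCGC, TTTCGCGC, TTTGCCGC or TTTGGCGC, was present in 1 mitotic gene (4.76%), 4 S-phase genes (40%) and 2.6% of all genes. The forms of the E2F element overlap one another, as in Mcm6 below. A match of letters is a description and not a bound site.

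The last 150 bases before the start site are printed for 7 genes picked, after the search, to show these elements: Top2a (chr11:99024190-99024339, minus strand), Kif11 (chr19:37376232-37376381, plus strand), Cdk1 (chr10:69352913-69353062, minus strand) and Cdc20 (chr4:118437344-118437493, minus strand) of the mitotic genes, and Mcm6 (chr1:128359706-128359855, minus strand), Mcm5 (chr8:75109359-75109508, plus strand) and Mcm2 (chr6:88898781-88898930, minus strand) of the S-phase genes. Each is written 5′ to 3′ on the gene's strand, with CHR, CCAAT and E2F matches on either strand in capitals.
Top2a: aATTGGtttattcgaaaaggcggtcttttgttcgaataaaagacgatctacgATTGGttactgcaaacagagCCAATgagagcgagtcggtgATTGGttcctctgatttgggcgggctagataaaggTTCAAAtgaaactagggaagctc
Kif11: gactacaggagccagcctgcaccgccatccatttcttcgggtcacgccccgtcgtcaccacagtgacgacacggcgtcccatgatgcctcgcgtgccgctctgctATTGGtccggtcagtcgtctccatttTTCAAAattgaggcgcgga
Cdk1: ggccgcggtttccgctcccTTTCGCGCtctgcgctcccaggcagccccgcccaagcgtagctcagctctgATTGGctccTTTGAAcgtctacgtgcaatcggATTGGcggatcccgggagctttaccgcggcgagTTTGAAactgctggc
Cdc20: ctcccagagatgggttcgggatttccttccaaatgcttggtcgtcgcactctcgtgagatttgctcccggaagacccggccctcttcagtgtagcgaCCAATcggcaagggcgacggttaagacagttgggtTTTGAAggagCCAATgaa
Mcm6: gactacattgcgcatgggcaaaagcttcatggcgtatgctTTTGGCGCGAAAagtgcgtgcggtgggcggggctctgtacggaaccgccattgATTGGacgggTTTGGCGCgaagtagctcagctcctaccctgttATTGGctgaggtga
Mcm5: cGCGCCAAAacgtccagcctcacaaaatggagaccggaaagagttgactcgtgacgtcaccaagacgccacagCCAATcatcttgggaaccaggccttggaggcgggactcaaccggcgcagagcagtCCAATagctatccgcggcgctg
Mcm2: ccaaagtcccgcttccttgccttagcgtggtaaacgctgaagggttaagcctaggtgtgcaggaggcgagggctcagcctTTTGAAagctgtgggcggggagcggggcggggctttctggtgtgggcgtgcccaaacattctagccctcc
In Top2a and Kif11 a CHR match lay close to the start site with CCAAT matches only before it, and in Cdc20 with a CCAAT match on each side. Cdk1 held 2 CHR matches, 2 CCAAT matches and 1 E2F match in this stretch. Mcm6 held 3 E2F matches and no CHR match, Mcm5 held 1 E2F match and no CHR match, and Mcm2 was the S-phase gene with a CHR match.

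Total counts ran from 28342764 to 47548379 per library, and the 39 genes together held 0.0405% to 0.0772% of them. The lowest count of any of the 39 genes in any library was 33, so none of their values rests on a few reads. Mitochondrially encoded genes took 14.7% to 24.6% of counts under DMSO and 27.8% to 34.6% under forskolin. Markers of the labelled cell type were present: 14 neuron markers summed to 4923 to 6215 CPM (counts scaled to library size) in DMSO. The cultures also held RNA of other cells, with 12 astrocyte markers summing to 7371 to 8108 CPM and 12 markers of the oligodendrocyte lineage to 947 to 1024 CPM in DMSO. Forskolin library 6 stood apart from libraries 4 and 5 in many of the results that follow, and counts of calls are also given without library 6. Because that library was singled out for its values in these data, calls made without it are conditional on those values, and they describe libraries 4 and 5 against DMSO rather than the treatment.

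In the DMSO cultures all 39 genes were detected, at very different levels. Per kilobase of the longest transcript, Ccnd1 (cyclin D1, which drives G1) had the highest level, 27.6 ± 1.14 RPKM (CPM per kilobase, mean ± SD, n = 3). Pcna followed at 14.9 ± 1.4 RPKM and Top2a, the topoisomerase that untangles sister chromatids, at 6.27 ± 0.979 RPKM. At the low end were the kinetochore proteins Cenpf, at 0.255 ± 0.0648 RPKM, and Cenpe, at 0.23 ± 0.00919 RPKM, whose values differed by less than the SD of Cenpf. All values below are CPM, and compare 1 gene across libraries. In bulk RNA, more cycling cells and more of these transcripts per cell cannot be told apart.

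The comparison of forskolin with DMSO asks which transcripts differ after 30 min of raised cyclic AMP. None of the 39 genes passed edgeR's quasi-likelihood test at an adjusted p of 0.05 over all tested genes, in either direction. Among all tested genes 0.172% were called higher and 1.34% lower. At an unadjusted p under 0.05, 17 of the 39 genes were higher (1 of 13 S-phase and 16 of 26 mitotic) and 0 were lower, against 10.6% of all tested genes higher and 11.7% lower. The smallest adjusted p by edgeR was 0.144, for Cenpf. Fitted values were above 0 for 37 of the 39 genes, among them all 26 mitotic genes. The median fitted log2 fold change was 0.74 over the mitotic genes (0.15 to 1.77), 0.23 over the S-phase genes (−0.25 to 0.99) and 0.02 over all tested genes. DESeq2 on the same counts called 9 of the 39 genes higher, all of them mitotic, against 4.90% of all genes. Limma-voom with library quality weights, which gives a divergent library less weight, called 26 (5 S-phase and 21 mitotic) against 21.0% of all genes.

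The spread behind those values lay between forskolin libraries. In library 4, 33 of the 39 genes were above every DMSO library, against 37.5% of all tested genes. In library 5 the number was 37, against 37.1% of all genes. In library 6 it was 8, against 29.5% of all genes. Relative to the DMSO mean, the median mitotic gene stood at 1.68-fold in library 4, 2.17-fold in library 5 and 1.07-fold in library 6. The median S-phase gene stood at 1.18-fold, 1.47-fold and 0.986-fold in the same libraries. Mitotic genes at 2-fold or more numbered 8 of 26 in library 4, 17 in library 5 and 0 in library 6. Of the S-phase genes only Ccne2 reached that level, in library 5. The share of all tested genes at 2-fold or more was not computed, so these counts have no background.

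**Figure D1:**
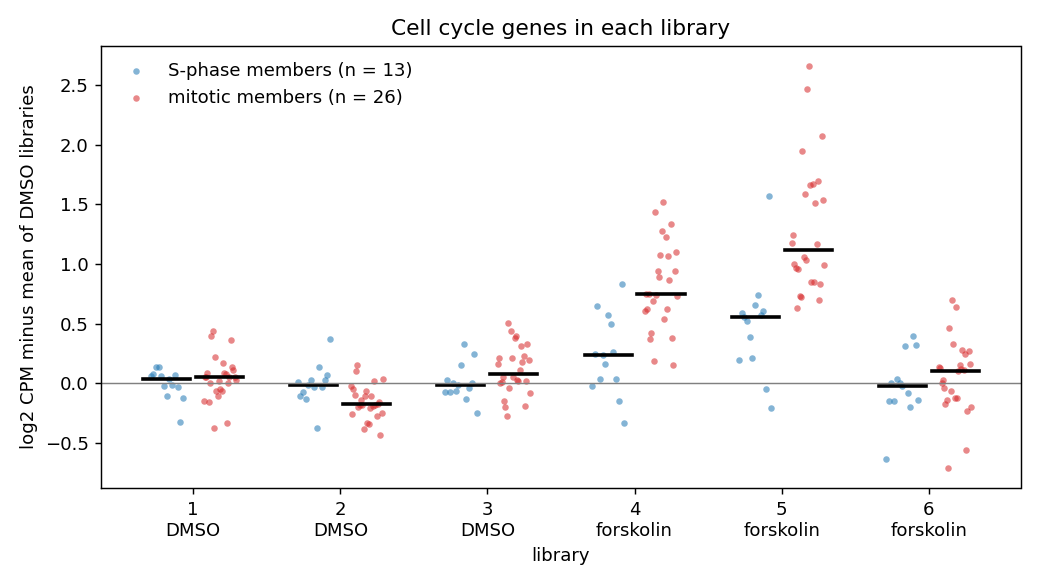
Log2 CPM of each of the 13 S-phase genes (blue) and 26 mitotic genes (red) in each library, minus the mean of the gene's 3 DMSO libraries; bars are medians. The mitotic medians are 0.75 in library 4 and 1.12 in library 5, and 0.11 in library 6, near the DMSO libraries (−0.17 to 0.08).

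Without library 6, edgeR called 23 of the 39 genes higher (59%) and 0 lower, against 16.5% of all genes tested called higher. Leaving out any other single library gave 0 calls among the 39 genes and 0 among all genes tested. The 23 comprised 20 of 26 mitotic genes (76.9%) and 3 of 13 S-phase genes (23.1%). The median fitted log2 fold change was then 0.93 over the mitotic and 0.33 over the S-phase genes, whereas without library 5 it was 0.49 and 0.13. For library 6 alone against the DMSO libraries, a comparison added after the values were seen, 0 of the 39 genes were called by edgeR, where 0.0354% of all genes were called higher and 0.519% lower, so that this 0 is near the background. The medians were then 0.14 and 0.02. With all 6 libraries, the forskolin values lay above DMSO without overlap for 7 of the 39 genes, Ccne2 and the mitotic genes Ttk, Pbk, Cenpf, Kif23, Tpx2 and Ect2, against 10.3% of all tested genes.

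Of the S-phase genes, the 6 subunits of the replicative helicase had a median log2 fold change of 0.19. Mcm2 was at 18.8, 18.1 and 17.2 CPM in DMSO libraries 1, 2 and 3 and at 17.7, 20.7 and 11.6 CPM in forskolin libraries 4, 5 and 6. Library 6 was the lowest of the 6 and library 5 the highest, and the fitted log2 fold change was −0.11 ± 0.22 (SE; edgeR adjusted p = 0.786), and 0.07 without library 6. Mcm5 was at 16.1, 13.3 and 14.6 CPM in DMSO and 15, 20.9 and 13.2 CPM in forskolin. The groups overlapped, with only library 5 above all DMSO libraries (0.16 ± 0.20, edgeR adjusted p = 0.664, and −0.02 on the log2 scale without it). Mcm6 was at 27.4, 26.1 and 25.2 CPM in DMSO and 30.9, 34.4 and 27.0 CPM in forskolin. Libraries 4 and 5 were above DMSO and library 6 was within its range (0.23 ± 0.13, edgeR adjusted p = 0.316). Fitted values of the other 3 subunits, Mcm3, Mcm4 and Mcm7, were 0.26, 0.43 and 0.13, and Mcm4 passed edgeR's test without library 6 (adjusted p = 0.0121).

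The 3 genes of DNA synthesis and nucleotide supply were each highest in libraries 4 and 5. Pcna, the sliding clamp of the replicative polymerases, was at 20.8, 22.1 and 25 CPM in DMSO and 33.6, 35.6 and 22.3 CPM in forskolin. Library 6 was inside the DMSO range, and the log2 fold change was 0.43 ± 0.20 (edgeR adjusted p = 0.25) with all libraries and 0.60 without library 6 (adjusted p = 0.0122). Tyms, thymidylate synthase, was at 3.84, 2.89 and 4.74 CPM in DMSO and 5.31, 6.32 and 4.66 CPM in forskolin (0.50 ± 0.25, edgeR adjusted p = 0.287). Rrm2, the small subunit of ribonucleotide reductase, was at 9.21, 10.2 and 8.47 CPM in DMSO and 11.1, 13.8 and 8.75 CPM in forskolin (0.27 ± 0.21, edgeR adjusted p = 0.458, and 0.13 on the log2 scale without library 5). For both, library 6 was inside the DMSO range. Tyms and Pcna have pseudogenes named after them, as do Ccnb1 and Ccnb2, so their reads could have been divided between copies.

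The 4 genes of the G1 to S transition had no order of libraries in common. Ccnd1 was at 108, 101 and 100 CPM in DMSO and at 106, 157 and 89.8 CPM in forskolin. Library 5 was the highest and library 6 the lowest of all 6 (0.19 ± 0.21, edgeR adjusted p = 0.611, and −0.04 on the log2 scale without library 5). Ccne1 was at 9.15, 9.48 and 9.31 CPM in DMSO and 8.41, 8.99 and 12.3 CPM in forskolin, so that here library 6 was the highest and libraries 4 and 5 lay below DMSO (0.09 ± 0.19, edgeR adjusted p = 0.812, and −0.12 on the log2 scale without library 6). Ccne2, the other E-type cyclin, was at 1.97, 2.59 and 2.95 CPM in DMSO and 4.44, 7.43 and 3.11 CPM in forskolin. Its groups did not overlap, and its log2 fold change of 0.99 ± 0.36 was the most positive of the S-phase genes (edgeR adjusted p = 0.186, and 0.0233 without library 6). Without library 5 it was 0.63. With a trend over GC content removed, as given below, the Ccne2 value was 0.23, and 0.24 when library 6 was also left out (edgeR adjusted p = 0.36). E2f1, a transcription factor of the G1 to S transition, was at 5.25, 7.42 and 4.80 CPM in DMSO and 4.52, 4.94 and 5.20 CPM in forskolin. The groups overlapped, and its value of −0.25 ± 0.23 was the most negative of the 39 genes with all libraries (edgeR adjusted p = 0.533). It rested on DMSO library 2, without which it was −0.02, and it was −0.39 without library 3. Pcna, Mcm4 and Ccne2 were the 3 S-phase genes that passed edgeR's test without library 6, where 16.5% of all genes were called higher.

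**Figure D2:**
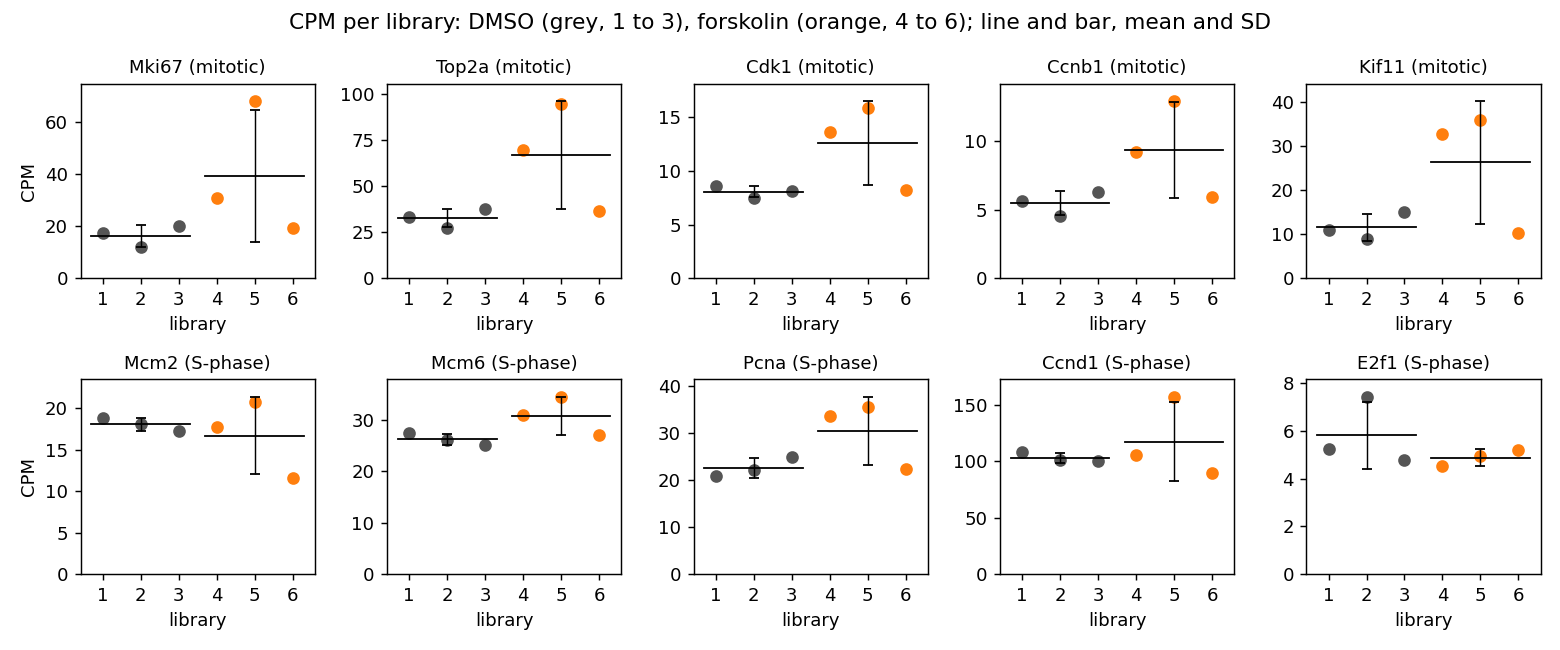
CPM in each library for 5 mitotic genes (top) and 5 S-phase genes (bottom), DMSO in grey and forskolin in orange; horizontal lines are group means and bars SD (n = 3). In the mitotic genes libraries 4 and 5 are above all DMSO libraries and library 6 is among them, for example Top2a at 69.7, 94.2 and 36.3 CPM, whereas E2f1 is at 4.52, 4.94 and 5.20 CPM.

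The cyclins of S, G2 and M phase and their kinase, 4 genes in all, had a median log2 fold change of 0.67. With all libraries 0 of the 4 passed edgeR's test (0.172% of all genes were called higher), and without library 6 all 4 did (16.5% of all genes). Cdk1, the kinase that starts mitosis, was at 8.59, 7.51 and 8.08 CPM in DMSO and at 13.6, 15.8 and 8.21 CPM in forskolin. Library 6 was inside the narrow DMSO range, and libraries 4 and 5 were above it (0.64 ± 0.26, edgeR adjusted p = 0.21, and 0.00846 without library 6). Ccnb1, the cyclin that activates Cdk1, was at 5.65, 4.53 and 6.31 CPM in DMSO and at 9.22, 12.9 and 5.97 CPM in forskolin, again with libraries 4 and 5 above DMSO and library 6 within it. Its log2 fold change was 0.77 ± 0.31 (edgeR adjusted p = 0.209, and 0.0185 without library 6), and 0.50 without library 5. The other cyclins of this group, Ccna2 and Ccnb2, had fitted values of 0.70 and 0.61.

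The 8 mitotic kinases and spindle checkpoint genes had a median of 0.56 on the log2 scale. With all libraries 0 of the 8 passed (0.172% of all genes were called higher), and without library 6 Bub1, Bub1b, Ttk and Pbk did (16.5% of all genes). Aurkb, the kinase of the chromosomal passenger complex, was at 3.31, 3.68 and 2.97 CPM in DMSO and 4.44, 6.49 and 2.93 CPM in forskolin (0.48 ± 0.32, edgeR adjusted p = 0.4). Birc5 (survivin), a subunit of the same complex, was at 4.22, 2.76 and 2.75 CPM in DMSO and 5.14, 5.29 and 2.87 CPM in forskolin (0.45 ± 0.32, edgeR adjusted p = 0.43). For both genes libraries 4 and 5 were above DMSO, and neither passed the test without library 6 (edgeR adjusted p of 0.0592 and 0.0809). The Aurkb value was 0.19 without library 5, and the Birc5 value was 0.70 without library 1. Plk1, a kinase that acts from mitotic entry to cytokinesis, was at 3.65, 2.36 and 2.22 CPM in DMSO and 3.06, 4.44 and 1.61 CPM in forskolin. Only library 5 was above all DMSO libraries, library 6 was the lowest of the 6, and the log2 fold change of 0.15 ± 0.41 was the least positive of the mitotic genes (edgeR adjusted p = 0.854). Without library 5 it was −0.20.

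The 9 genes of the spindle, the kinetochore and cytokinesis had a median log2 fold change of 1.16, the highest of the role groups. With all libraries 0 of the 9 passed edgeR's test (0.172% of all genes were called higher), and without library 6 all 9 did (16.5% of all genes). Cenpf, a large kinetochore protein, was at 2.69, 2.20 and 3.62 CPM in DMSO and 6.82, 17.8 and 4.36 CPM in forskolin. The groups did not overlap, although library 6 lay closer to DMSO than to library 5, and the log2 fold change of 1.77 ± 0.54 was the most positive of the 39 genes (edgeR adjusted p = 0.144, and 0.0138 without library 6). Without library 5 it was 1.01. Cenpe, a kinetochore motor, was at 1.84, 1.74 and 1.88 CPM in DMSO and 3.91, 10.3 and 1.67 CPM in forskolin, with library 6 the lowest of all (1.54 ± 0.62, edgeR adjusted p = 0.209, and 0.0145 without library 6). Its value without library 5 was 0.65. The spindle motor Kif11 was at 10.9, 8.93 and 15 CPM in DMSO and 32.6, 35.8 and 10.4 CPM in forskolin. Libraries 4 and 5 were far above DMSO and library 6 was within it (1.18 ± 0.46, edgeR adjusted p = 0.199, and 0.00514 without library 6).

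Both genes of the anaphase-promoting complex failed the test with and without library 6, where 0.172% and 16.5% of all genes were called higher. Cdc20, its mitotic activator, was at 9.99, 6.92 and 6.84 CPM in DMSO and 10.2, 12.7 and 5.26 CPM in forskolin, so that library 4 barely exceeded DMSO library 1 and library 6 was the lowest (0.24 ± 0.34, edgeR adjusted p = 0.698, and −0.01 on the log2 scale without library 5). Ube2c, its ubiquitin-conjugating enzyme, was at 5.15, 4.17 and 4.74 CPM in DMSO and 5.18, 8.34 and 3.97 CPM in forskolin (0.31 ± 0.30, edgeR adjusted p = 0.558, and 0.00 on the log2 scale without library 5). The Cdc20 promoter stretch printed above holds CHR and CCAAT matches, as those of Top2a and Kif11 do.

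The 3 genes of the chromosome surface, topology and chromatin had a median log2 fold change of 1.03. With all libraries 0 of the 3 passed edgeR's test (0.172% of all genes were called higher), and without library 6 all 3 did (16.5% of all genes). Mki67, which coats mitotic chromosomes and is the standard marker of proliferating cells, was at 17.3, 11.9 and 20.2 CPM in DMSO and 30.9, 67.9 and 19.4 CPM in forskolin. Library 5 was higher than any other library and library 6 was within DMSO (1.26 ± 0.46, edgeR adjusted p = 0.184, and 0.0193 without library 6). Without library 5 the log2 fold change was 0.65. Top2a was at 33.5, 27.3 and 37.4 CPM in DMSO and 69.7, 94.2 and 36.3 CPM in forskolin (1.03 ± 0.33, edgeR adjusted p = 0.158, and 0.00483 without library 6). Hmgb2, a chromatin protein of proliferating cells, was at 3.84, 3.87 and 3.56 CPM in DMSO and 6.29, 7.52 and 3.25 CPM in forskolin (0.60 ± 0.32, edgeR adjusted p = 0.311, and 0.0142 without library 6), with a log2 fold change of 0.38 without library 5. Without library 6 and with a trend over GC content removed, as given below, it was 0.08 (edgeR adjusted p = 0.788).

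**Figure D3:**
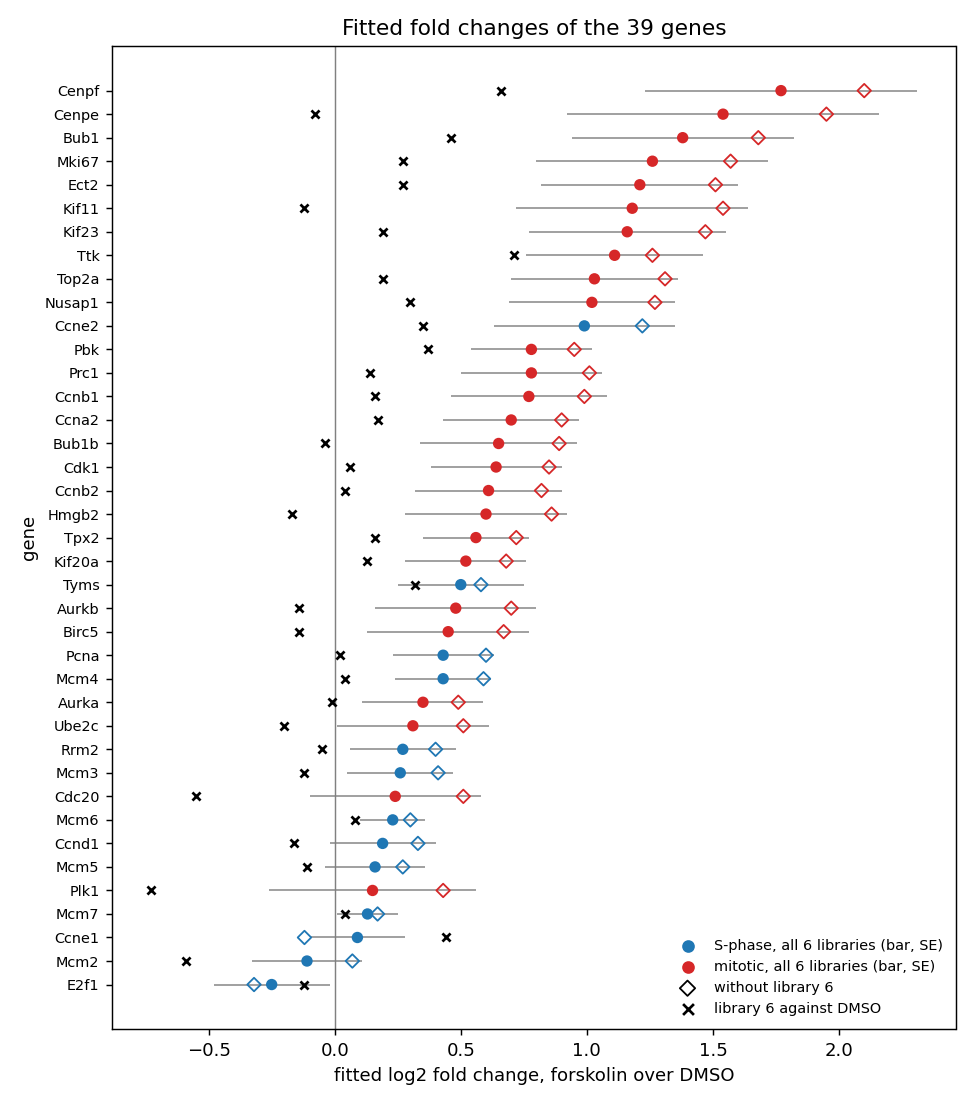
Fitted log2 fold change of each of the 39 genes, forskolin over DMSO, with all 6 libraries (filled circles with SE bars; S-phase blue, mitotic red), without library 6 (open diamonds) and for library 6 alone against DMSO (crosses). The mitotic genes fill the upper end, from Cenpf at 1.77 downwards, Ccne2 at 0.99 is the highest S-phase gene, and E2f1 at −0.25 is the lowest.

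The mitotic and S-phase genes were compared within each library. The median mitotic log2 ratio to the DMSO mean minus the median S-phase ratio came to 0.01, −0.16 and 0.09 under DMSO (libraries 1, 2 and 3). Under forskolin it came to 0.51, 0.56 and 0.12 (libraries 4, 5 and 6). The forskolin libraries were all above the DMSO libraries, but library 6 exceeded DMSO library 3 by much less than the pooled SD between libraries of 0.19. On the scale of summed CPM, the 26 mitotic genes held 180, 153 and 194 CPM in DMSO and 326, 459 and 185 CPM in forskolin. The S-phase genes other than Ccnd1, which alone holds a large part of the S-phase sum, held 165, 161 and 162 CPM in DMSO and 197, 222 and 157 CPM in forskolin. The ratio of the sums was 0.948 to 1.2 in DMSO, 1.65 in library 4, 2.07 in library 5 and 1.18 in library 6, which is inside the DMSO range. Membership of the classes was set by function and no test over the members was made.

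The summed microglia and neuron markers also set libraries 4 and 5 apart from library 6. The astrocyte sum of library 4 and the vascular and meningeal sum of library 5 lay inside the DMSO range. The summed level of 12 microglia markers was 23.3 to 35.3 CPM in DMSO and 232, 382 and 25.7 CPM in libraries 4, 5 and 6. Of the 11 tested markers, 10 were above every DMSO library in both library 4 and library 5, against 30.2% of all tested genes, and none of the 12 was at 0 in every library. With all libraries edgeR called 0 of the 11, with 10 higher at an unadjusted p under 0.05 (10.6% of all genes). DESeq2 called 10 of the 11 higher (4.90% of all genes). EdgeR without library 6, where all 12 could be tested, called 11 higher (16.5%). The 14 neuron markers summed to 3623, 3869 and 5951 CPM in libraries 4, 5 and 6. In library 6, 6 of the 14 were below every DMSO library, against 35.3% of all tested genes, and 5 were above every one, against 29.5%. With all libraries edgeR called only Rbfox3 lower (69.2 to 84.5 CPM in DMSO and 37.8, 42.8 and 47.2 CPM in forskolin, adjusted p = 0.0392), against 1.34% of all genes. DESeq2 called 4 of the 14 lower, where it called 979 of all 16233 tested genes lower. Without library 6 edgeR called 9 of the 14 lower, against 17.1% of all genes. The 12 astrocyte markers summed to 8038, 8845 and 7256 CPM in the forskolin libraries. The 12 markers of the oligodendrocyte lineage summed to 1212, 1660 and 767 CPM there, and 10 markers of neural progenitors and neuroblasts to 543, 477 and 229 CPM, after 244 to 364 CPM in DMSO. The 12 vascular and meningeal markers summed to 117 to 287 CPM in DMSO and to 333, 152 and 107 CPM in forskolin, with 1 marker at 0 in every DMSO library. The part of these cells, and of the mitochondrial share, in the values of the 39 genes was not tested.

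**Figure D4:**
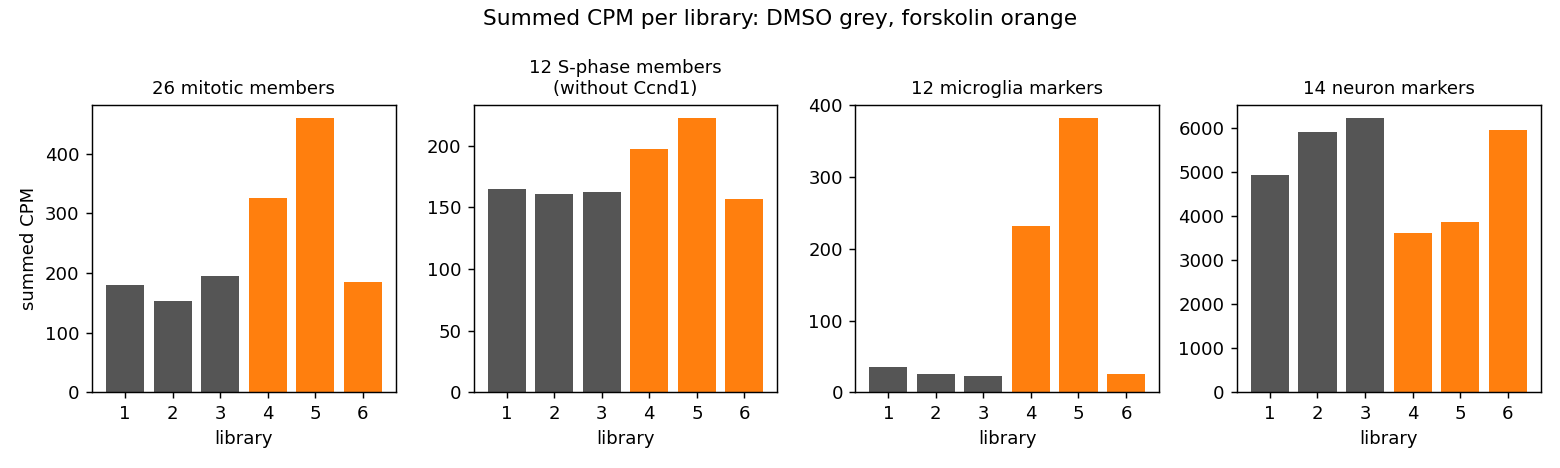
Summed CPM per library of the 26 mitotic genes, the 12 S-phase genes other than Ccnd1, 12 microglia markers and 14 neuron markers, with DMSO in grey and forskolin in orange and each axis starting at 0. Libraries 4 and 5 are highest for the mitotic genes (326 and 459 CPM) and for the microglia markers (232 and 382 CPM) and lowest for the neuron markers, and the sums of library 6 are 185, 157, 25.7 and 5951 CPM.

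The genes also differed by base composition. The median GC content of the longest transcript was 46.2% for the mitotic genes, 50.9% for the S-phase genes and 49.5% for all tested genes. Across the 39 genes, which share the same 6 libraries, the log2 fold change went with GC content at a Spearman's rho of −0.80, and across all 15769 tested genes with a known GC content at −0.51. Within the classes rho was −0.77 over the 26 mitotic genes and −0.86 over the 13 S-phase genes. Without library 6 these were −0.78 over the 39, −0.79 over the mitotic and −0.87 over the S-phase genes. The most GC-rich mitotic genes, Plk1 (56.0%), Cdc20 (55.6%) and Ube2c (55.5%), had the 3 least positive fold changes of that class. The most GC-poor S-phase gene, Ccne2 (36.3%), had the most positive of its class, and the most GC-rich, E2f1 (58.3%), the most negative. A window on the middle 50% of the mitotic GC range (43.1% to 49.1%) was chosen after the values were seen. All tested genes within it had a median log2 fold change of 0.11 (n = 4852). The median of 0.74 given above is over all 26 mitotic genes, also those outside the window, so these sets are unlike.

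With the trend over GC content removed from the counts of all genes, edgeR called 0 genes in all. The medians were then 0.50 for the mitotic genes, 0.15 for the S-phase genes and −0.07 for all tested genes (0.02 without the removal). In that fit rho with GC content over the 39 genes was −0.44 (−0.49 over the mitotic and −0.32 over the S-phase genes). Without library 6 and with that trend removed, it called 18 of the 39 genes higher (17 mitotic genes and Pcna), against 12.4% of all genes, and all 18 were among the 23 named above. The fold change of Hmgb2, the mitotic gene with the lowest GC content (38.7%), was −0.04 with the trend removed, and that of Ccne2 was 0.23. Mki67 and Top2a were at 1.07 and 0.70 in the all-library fit with the trend removed. The calls made without library 6 that were lost with the trend also removed were those of Hmgb2, Ccne2, Mcm4, Ttk and Kif20a. Their edgeR adjusted p were then 0.788, 0.36, 0.0873, 0.0559 and 0.0642.

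**Figure D5:**
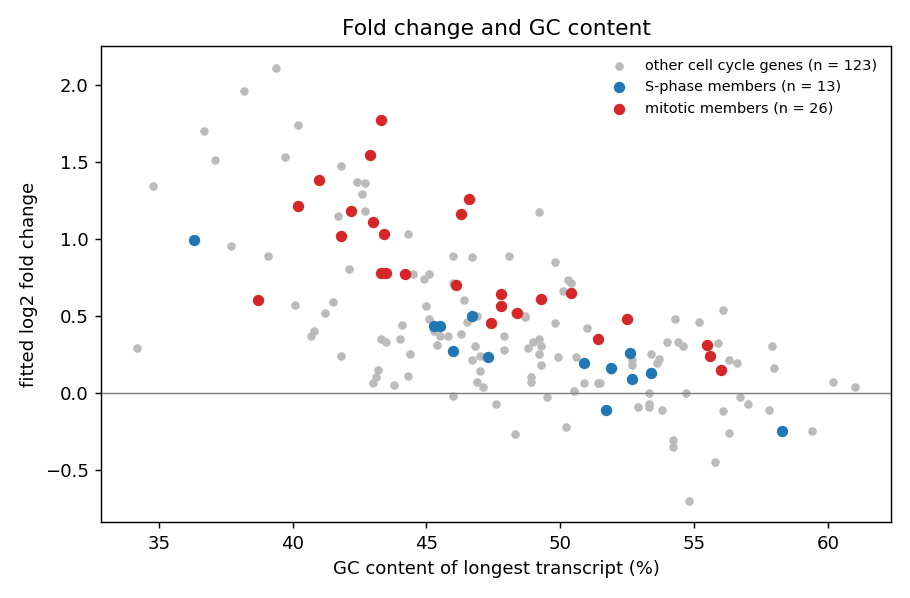
Fitted log2 fold change (all 6 libraries) against the GC content of the longest transcript, for the 13 S-phase genes (blue), the 26 mitotic genes (red) and 123 other cell cycle genes with a known GC content (grey). Values decline with GC content, with rho of −0.62 over the grey points, and run from 0.99 for Ccne2 at 36.3% to −0.25 for E2f1 at 58.3% among the S-phase genes.

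The 3 longest transcripts differed most between libraries 4 and 5. Of the 39 genes, 38 were higher in library 5 than in library 4, with a median ratio of 1.25. This ratio was not computed for all tested genes, so the count of 38 and the 1.25 have no direct background. On the log2 scale, all tested genes had medians of 0.02 (library 4) and 0.00 (library 5) over DMSO. The 3 largest ratios, 2.65 for Cenpe, 2.62 for Cenpf and 2.2 for Mki67, belonged to the 3 longest transcripts, of 7.91, 11.13 and 10.06 kb. Over all 39 genes, however, rho of this ratio with length was 0.15, and shorter transcripts such as Ccne2 (3.01 kb, 1.67) and Ube2c (2.19 kb, 1.61) came next. This comparison was made after the values were seen. For the fold change of forskolin over DMSO, rho with length was 0.43 over the 39 genes, 0.63 over the mitotic genes and 0.15 over the S-phase genes, against 0.06 over all tested genes. Without library 6 the values for the 39, the mitotic and the S-phase genes were 0.42, 0.65 and 0.13. The part of length and GC content in the values of the mitotic genes was not tested beyond the fits above.

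Other genes of the cell cycle were read from 4 lists, whose counts at an unadjusted p stand against the 10.6% of all tested genes that were higher and the 11.7% that were lower. Without library 6 the shares of all genes called were 16.5% higher and 17.1% lower. Of 54 other mitotic genes (kinetochore, condensin, motor and checkpoint genes), edgeR called 0 with all libraries, with 20 higher at an unadjusted p under 0.05 and 0 lower, and 29 higher and 0 lower without library 6. Their median log2 fold change was 0.55. Of 42 other replication genes it called 0 (6 higher at an unadjusted p under 0.05), 8 higher and 1 lower without library 6, with a median of 0.23. Of 14 drivers of G1 it called 0 (1 higher and 1 lower at an unadjusted p under 0.05), and 4 higher and 1 lower without library 6, with a median of 0.05. Of the 16 tested brakes on the cycle it called 0 (3 higher and 1 lower at an unadjusted p under 0.05), and 3 higher and 1 lower without library 6, with a median of 0.13. DESeq2 with all libraries called 13 of the other mitotic genes, 1 replication gene, 0 drivers and 1 brake higher, and 0 lower. It called 4.90% of all genes higher, so the counts for replication genes, drivers and brakes are near the background. The order of the medians, mitotic above replication, was the same as in the 39 genes, and these lists share their libraries with them.

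None of the regulators fixed for naming passed edgeR's test. Foxm1, a transcription factor of G2 and M genes, was at 4.43, 4.04 and 4.94 CPM in DMSO and 5.71, 7.49 and 3.31 CPM in forskolin (0.30 ± 0.32, edgeR adjusted p = 0.591). Mybl2, its partner in that programme, differed by 0.21 ± 0.41 on the log2 scale (edgeR adjusted p = 0.785). Ccnd2, a D-type cyclin, was at 114 to 130 CPM in DMSO and at 118, 147 and 115 CPM in forskolin (0.04 ± 0.13, edgeR adjusted p = 0.868). The kinase inhibitors Cdkn1a, Cdkn1b and Cdkn1c had log2 fold changes of 0.33 ± 0.33, 0.10 ± 0.18 and −0.25 ± 0.49 (edgeR adjusted p of 0.571, 0.764 and 0.787). None of these 6 passed the test without library 6, where 16.5% of all genes were called higher and 17.1% lower.

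The authors' deposited table lists 132 genes for this contrast, whose ranks reach 1224, so it is part of a longer list. It contains 0 of the 39 genes, 6 of the microglia markers and 1 of the other cell cycle genes, the condensin subunit Smc4. The smallest log2 fold change in the authors' deposited table is 1.501, and of the 39 genes only Cenpf (1.77) and Cenpe (1.54) had a fitted value above that. For Smc4 the authors' deposited table gives a log2 fold change of 1.81 with an adjusted p of 5.38e-09. In the counts Smc4 was at 4.68, 4.53 and 5.97 CPM in DMSO and 16.2, 27.9 and 6.78 CPM in forskolin. Library 6 was above DMSO but far below libraries 4 and 5, and edgeR gave 1.74 ± 0.48 with an adjusted p of 0.127, and 0.00402 without library 6. DESeq2 on these counts gave Smc4 an adjusted p of 0.00389.

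In 9 of the 39 genes (Mcm7, Ccnd1, Ccne2, Ccna2, Kif20a, Nusap1, Prc1, Cdc20 and Ube2c) some exon bases are shared with a protein-coding gene on the other strand. Whether counting used the strand is not given in the sources used here, so reads of such a pair cannot be told apart.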

How the data were processed

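The authors deposited unnormalised counts, whole numbers for each gene symbol and library. Salmon, DESeq and GRCm38 are named in the submitters' processing notes, with no role or version. The authors' deposited table gives a log2 fold change and an adjusted p-value per gene. RNA was extracted with Trizol and chloroform, per the labels' protocols.

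Counts were tested with edgeR 4.0.16 (R 4.3.3; quasi-likelihood test) after filterByExpr (minimum count 10, minimum total 15), with TMM factors. The Benjamini-Hochberg adjustment ran over 16233 genes, with a threshold of 0.05. The common biological coefficient of variation was 0.29. CPM are counts over the TMM-scaled library size, and log2 CPM used a prior count of 2. SE is the absolute log2 fold change over the square root of F. With 3 libraries against 3, an exact permutation test cannot give p below 0.1, and none was used. No library pair agreed within sampling noise (chi-square per degree of freedom 30.3 to 283).

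Length, GC content and gene overlaps came from GENCODE M21 (GRCm38), matched by symbol. The GC trend was a spline with 5 degrees of freedom. Sgo1, Sgo2a and Knl1 were read under their older symbols, and 1 brake, Lin9, held 0 counts in every library. Alternatives also used DESeq2 1.42.0 and limma 3.58.1. The fitting scripts were tested on simulated data.

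The members and lists were chosen with earlier results of these data known. Values in every library were given for 20 members fixed whatever their values (Mki67, Top2a, Cdk1, Ccnb1, Aurkb, Birc5, Plk1, Cdc20, Ube2c, Hmgb2, Mcm2, Mcm5, Mcm6, Pcna, Tyms, Rrm2, Ccnd1, Ccne1, Ccne2 and E2f1), and for the 2 most positive and 2 most negative of each class, which added Cenpe and Cenpf. Cdkn1a, Cdkn1b, Cdkn1c, Ccnd2, Foxm1 and Mybl2 were named by the same rule. Kif11, Smc4 and the other genes named were chosen after their values were seen.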

Additional observations from a re-analysis of the deposited data

How the results depend on the processing

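The direction of the mitotic median, and of its excess over the S-phase median, held in all 17 alternatives, but its size rested on libraries 4 and 5. Where 245 genes and 0 members were called, DESeq2 called 1775 genes (796 higher, 979 lower) and 9 members, and limma-voom with quality weights 6795 (3403 higher) and 26. RLE factors gave 137 genes and removal of the GC trend 0. Leaving out 1 library gave 0 to 5698 genes and 0 to 23 members, with 0 of both whichever library other than 6 was left out. Without library 6 and with the GC trend removed, 7016 genes (2107 higher, 4909 lower) and 18 members were called, with the median of all genes at −0.18. With library size alone that median was −0.09 against 0.02. No member was called lower in any of these alternatives. The alternatives that leave out libraries 4 and 5 were added after seeing the data. Without libraries 4 and 5, 94 genes were called and the S-phase median, the mitotic median and their difference were 0.02, 0.14 and 0.12. With the GC trend also removed, 45 genes were called and the same values were −0.01, 0.01 and 0.02, so that the S-phase median changed sign.

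Of 374 values (22 named genes in 17 alternatives), 305 kept direction and side of the threshold, 31 passed it and 38 changed sign. Changed signs were Mcm2 0.07 and Ccne1 −0.08 with limma-voom, Ccne1 −0.02 with library size alone, E2f1 0.08 and Hmgb2 −0.04 with the GC trend removed, and Ccne1 −0.19 with library 6 left out as well. Without libraries 4 and 5 they were Mcm5 −0.11, Rrm2 −0.05, Ccnd1 −0.16, Aurkb −0.14, Birc5 −0.14, Plk1 −0.73, Cenpe −0.08, Cdc20 −0.55, Ube2c −0.20 and Hmgb2 −0.17. With the GC trend also removed they were Mcm5 −0.03, Mcm6 −0.01, Pcna −0.13, Rrm2 −0.18, Ccnd1 −0.12, E2f1 0.41, Ccnb1 −0.02, Cdk1 −0.01, Aurkb −0.02, Birc5 −0.22, Plk1 −0.38, Cenpe −0.30, Cdc20 −0.24, Top2a −0.01 and Hmgb2 −0.48. Leaving out 1 library moved Ccnd1 from −0.04 to 0.33, Ccne1 from −0.12 to 0.19, Cdc20 from −0.01 to 0.51, Mcm2 from −0.26 to 0.07, Mcm5 from −0.02 to 0.27, E2f1 from −0.39 to −0.02 and Plk1 from −0.20 to 0.43. None of the genes that changed sign passed the threshold where it did so, and the cause was not tested. Where a group has 1 library, that library is assumed to vary like the others. No paired analysis was made, because the labels number the libraries 1 to 6 across the groups and do not say whether any are paired.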
